A study of Mus musculus with 29 samples.

Results

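The target genes considered here were 10 genes of secretory cells: Rab3d, Rab26, Gjb1, Atp2c2, Copz2, Serpini1, Tpd52, Xbp1, Cpa1 and Cel. They were taken by name, with no threshold on their peaks, out of 21938 protein-coding genes in the GENCODE vM21 annotation. Each gene was given a window of its body plus 20 kb on either side on mm10 (GRCm38). The 10 windows covered 680.037 kb, with single windows of 45.23 to 125.9 kb. All samples were NIH-3T3 cells, an immortalised mouse embryonic fibroblast line, carrying an inducible lentiviral construct for 1 HA-tagged transcription factor and treated overnight with 500 ng/ml doxycycline, which switches the construct on. Bound DNA was recovered with an antibody against HA and sequenced, and the deposited values are positions of peaks, 1 list per sample. There were 28 lists from 24 constructs, with 304922 peaks in all. There were 2 replicates for 4 of the constructs (SOX2-HA, OCT4-HA, BHLHB8-HA and FOXA1-HA) and 1 list for each of the remaining 20. FOXA1_RR-HA and FOXA1_SW-HA were altered forms of FOXA1, and 1 line carried SOX2-YPET beside OCT4-HA. The lists hold no read counts, so depth is unknown, and no expression was measured, so neither the fibroblast label nor the activity of any gene could be checked.

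BHLHB8, better known as MIST1, is a basic helix-loop-helix factor of exocrine cells such as the acinar cells of the pancreas and the zymogenic cells of the stomach. Factors of this family bind as dimers to short palindromic elements called E-boxes. In acinar cells MIST1 is known for its part in building the apparatus of regulated secretion, in which digestive enzymes are folded in the endoplasmic reticulum, packed into zymogen granules and released at the apical membrane. Fibroblasts have no such granules, and here the factor was placed in them from outside. The 10 genes fall into granule traffic (Rab3d, Rab26, Tpd52), vesicle coats (Copz2), calcium handling and cell coupling (Atp2c2, Gjb1), the unfolded protein response (Xbp1) and secreted proteins (Cpa1, Cel, Serpini1).

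The sequences under the peaks found in both replicates show what BHLHB8-HA covered at these genes. Each is plus-strand GRCm38 sequence from the stretch shared by overlapping replicate peaks, with the E-box forms CATATG and CAGCTG in capitals, and the number in kb is the distance of that stretch from the start of the gene, negative when upstream. Where a stretch held an E-box, the bases printed were placed around it and not around the centre of the peak. The sequences are a selection from 24 shared stretches, of which 18 held either form, a count with no share over all shared stretches beside it. Sequences overlapping an untranslated region are cut to 30 bases. The groups below follow the form printed and are not separate classes of site. Shared stretches at -9.4 kb of Copz2 and 1.0 kb of Xbp1 also held CAGCTG, outside the bases printed. That at 43.6 kb of Atp2c2 held both forms and is not printed. The first group holds the CATATG form at Rab3d, Copz2 and Xbp1:
Rab3d at 0.4 kb, chr9:21917770-21917869: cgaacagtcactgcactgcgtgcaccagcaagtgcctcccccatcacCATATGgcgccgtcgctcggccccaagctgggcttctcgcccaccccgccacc
Copz2 at 0.9 kb, chr11:96850730-96850829: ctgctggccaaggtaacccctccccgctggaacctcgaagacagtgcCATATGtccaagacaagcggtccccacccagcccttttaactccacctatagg
Copz2 at -9.4 kb, chr11:96840434-96840533: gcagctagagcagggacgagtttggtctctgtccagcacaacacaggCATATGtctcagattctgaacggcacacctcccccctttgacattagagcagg
Xbp1 at 1.0 kb, chr11:5521639-5521668: ggagggaagaagCATATGacgcaacgggaa

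The second group holds the CAGCTG form. It takes in the site with the most constructs (Atp2c2), both replicated sites of Cel, and the only replicated sites of Rab26 and Tpd52, which lie at the starts of neighbouring genes:
Atp2c2 at 15.4 kb, chr8:119715539-119715638: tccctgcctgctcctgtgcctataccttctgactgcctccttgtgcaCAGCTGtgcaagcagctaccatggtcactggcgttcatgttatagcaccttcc
Xbp1 at 0.2 kb, chr11:5520789-5520818: cacggcggagaaCAGCTGtgcagccacgct
Cel at -6.7 kb, chr2:28569999-28570098: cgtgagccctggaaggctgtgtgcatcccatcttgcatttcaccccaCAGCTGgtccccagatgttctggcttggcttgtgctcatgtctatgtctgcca
Cel at 24 kb, chr2:28539328-28539427: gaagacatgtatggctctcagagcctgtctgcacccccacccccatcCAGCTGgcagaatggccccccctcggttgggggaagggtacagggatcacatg
Rab26 at -15.9 kb, chr17:24550108-24550137: cagagcgctgagCAGCTGtcgcaccgcaga
Tpd52 at 80.9 kb, chr3:8923921-8924020: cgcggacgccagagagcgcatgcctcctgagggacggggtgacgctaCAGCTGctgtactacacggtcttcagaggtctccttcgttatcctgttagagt

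The last sequence is the replicated site at the start of Serpini1, whose shared stretch held neither form:
Serpini1 at -0.1 kb, chr3:75557397-75557496: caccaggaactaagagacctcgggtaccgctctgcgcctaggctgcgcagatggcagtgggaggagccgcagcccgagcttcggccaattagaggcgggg

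BHLHB8-HA peaks lay in the windows of 9 of the 10 genes in both replicates, and Gjb1 was the gene with none. Replicate 1 placed 33 of its 46842 peaks in the windows and replicate 2 placed 34 of its 61991. A peak in both lists is common, since 65.8% of all protein-coding genes had one, with 67.9% for replicate 1 and 78.8% for replicate 2. The median of the summed peaks of both lists was 5 over the 10 genes and 4 over all genes. Copz2 and Atp2c2 held most, each at percentile 94.84 of all genes, and the others ranged from percentile 0 (Gjb1) to 76.79 (Xbp1). No test was made over the genes, which were named as targets of this factor.

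**Figure D1:**
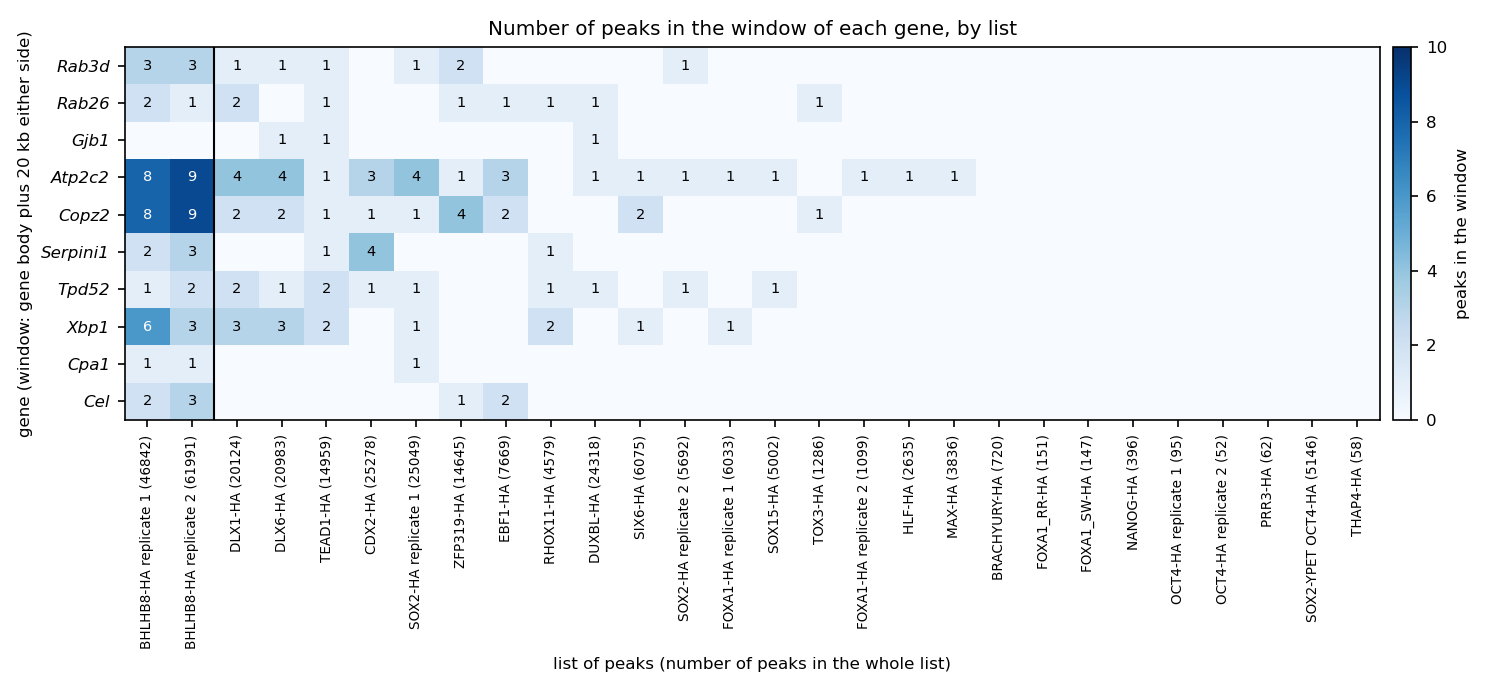
Number of peaks in the window of each gene (rows) in each of the 28 lists (columns), with the length of each list in parentheses. The line sets the BHLHB8-HA lists apart; Atp2c2 and Copz2 hold 8 and 9 peaks there, and Gjb1 holds 0.

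Among the granule genes, Rab3d encodes a small GTPase on the surface of zymogen granules. Its window held 3 peaks in replicate 1 and 3 in replicate 2, and all 3 overlapped between them. The site at 0.4 kb lay in the first stretch of the gene, in an intron, and is the one printed above with CATATG. The peak was 354 bp wide in replicate 1 and 837 bp in replicate 2, and DLX1-HA and TEAD1-HA had a peak on it as well. The other sites, at -6.0 and -9.5 kb, lay in an intron of Tmem205 and at the start of Ccdc159, 44 bp from its nearest transcript start. Over the 26 other lists the window of Rab3d held a median of 0 peaks, from 0 to 2.

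Copz2 encodes the zeta-2 subunit of the coatomer, the coat of vesicles that return cargo from the Golgi to the endoplasmic reticulum. It had 8 peaks in replicate 1 and 9 in replicate 2, with 7 overlapping, the most of any of the genes. The overlapping sites ran from -12.4 to 17.6 kb, and the one at 0.9 kb lay on a coding exon of Copz2 with no peak of another construct. Of the 7 sites, 6 held CATATG or CAGCTG in the shared stretch, a count with no share over all shared stretches beside it. The site at -12.4 kb was nearer to the start of Nfe2l1 than to that of Copz2. The highest of the other lists was ZFP319-HA with 4 peaks, so both BHLHB8-HA lists were above every other list at this gene.

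Rab26 encodes another small GTPase of secretory granules. Replicate 1 had 2 peaks and replicate 2 had 1. The overlapping site was at -15.9 kb, 128 bp from the start of Pkd1, the polycystin-1 gene, and was 1290 bp wide in replicate 1 and 1316 bp in replicate 2. DLX1-HA, EBF1-HA, TEAD1-HA and TOX3-HA also had a peak there. The remaining replicate 1 peak lay in the body of Rab26 but 121 bp from the start of Traf7. No list had a peak within 1 kb of a start of Rab26 itself.

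Tpd52 encodes a calcium-regulated protein found near acinar granules. It had 1 peak in replicate 1 and 2 in replicate 2. The overlapping site at 80.9 kb lay beyond the end of the gene, 102 bp from the start of Mrps28, a mitochondrial ribosome gene, and carried DLX1-HA, RHOX11-HA and TEAD1-HA peaks too. The further replicate 2 peak lay in an intron and had no partner. Within 1 kb of a Tpd52 start only TEAD1-HA had a peak, in 1 place, as was also the case at Atp2c2.

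Atp2c2 encodes a calcium and manganese pump of the secretory pathway. Replicate 1 had 8 peaks and replicate 2 had 9, and 6 overlapped. They stood at -13.7 and -12.7 kb, in the neighbouring gene Wfdc1, and at 5.6, 9.2, 15.4 and 43.6 kb in introns of Atp2c2. This was also the window with most peaks of other constructs, 28 peaks of 13 constructs, with a median of 1 per list and a highest of 4. The intronic site at 15.4 kb carried peaks of DLX1-HA, DLX6-HA, EBF1-HA, FOXA1-HA, HLF-HA, MAX-HA and SOX2-HA beside BHLHB8-HA, 8 constructs in all and the most at any site in the 10 windows. It was the only place in these windows with a peak of MAX-HA, the other basic helix-loop-helix factor among the constructs.

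Gjb1 encodes connexin 32, which forms the gap junctions between acinar cells. Neither BHLHB8-HA list had a peak in its window. The nearest peaks lay 43.8 kb from the gene body downstream in replicate 1 and 36.9 kb upstream in replicate 2, so not at the same place. The window held 1 peak each of DLX6-HA, DUXBL-HA and TEAD1-HA, at 7175, 7183 and 8357 bp upstream of the start. It also held 20 copies of CATATG and 15 of CAGCTG, none of them in a BHLHB8-HA peak. Gjb1 is the only one of the genes on the X chromosome, where 69% of 948 protein-coding genes had no BHLHB8-HA peak in either list, against 16.2% of 20807 on the autosomes and 19.1% of all. Replicate 1 had 2.4 peaks per Mb on X and 18.8 on the autosomes, and replicate 2 had 2.17 and 25. Whether the low count at Gjb1 belongs to the gene or to its chromosome cannot be told apart here.

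Xbp1 encodes the transcription factor that drives the secretory arm of the unfolded protein response. Replicate 1 had 6 peaks and replicate 2 had 3. Around the start of the gene, a single replicate 2 peak of 1402 bp covered replicate 1 peaks of 414 and 723 bp, which stand at 0.2 and 1.0 kb and are printed above with CAGCTG and CATATG. Another overlapping site stood at -10.7 kb, between genes, shared with DLX6-HA, FOXA1-HA and SIX6-HA. DLX1-HA and TEAD1-HA overlapped the sites at 0.2 and 1.0 kb and RHOX11-HA overlapped the former. The peaks near the start of Ccdc117 at the far end of the window, 1 per replicate, did not overlap each other. The remaining replicate 1 peaks, 18124 bp and 325 bp upstream of the start, had no partner.

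Serpini1 encodes neuroserpin, a secreted inhibitor of serine proteases. It had 2 peaks in replicate 1 and 3 in replicate 2, and 1 site overlapped, at -0.1 kb from its start. No other construct had a peak on it. The Pdcd10 gene starts close by on the opposite side, and a second replicate 2 peak lay 200 bp from that start with no replicate 1 partner. CDX2-HA, with 4 peaks, had more in the window than either BHLHB8-HA list.

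Cel encodes the bile salt-activated lipase of pancreatic juice and Cpa1 encodes the pancreatic carboxypeptidase A1. Cel had 2 peaks in replicate 1 and 3 in replicate 2, with 2 overlapping: at -6.7 kb, in an intron of Gtf3c5 and without another construct, and at 24 kb, in an intron of Ralgds and shared with EBF1-HA. Cpa1 had 1 peak in each replicate, 2.69 kb upstream of the gene body in replicate 1 and 10.3 kb downstream in replicate 2, and these did not overlap. The 1 other peak in its window was of SOX2-HA replicate 1. Neither enzyme gene had a peak of any list within 1 kb of its start.

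**Figure D2:**
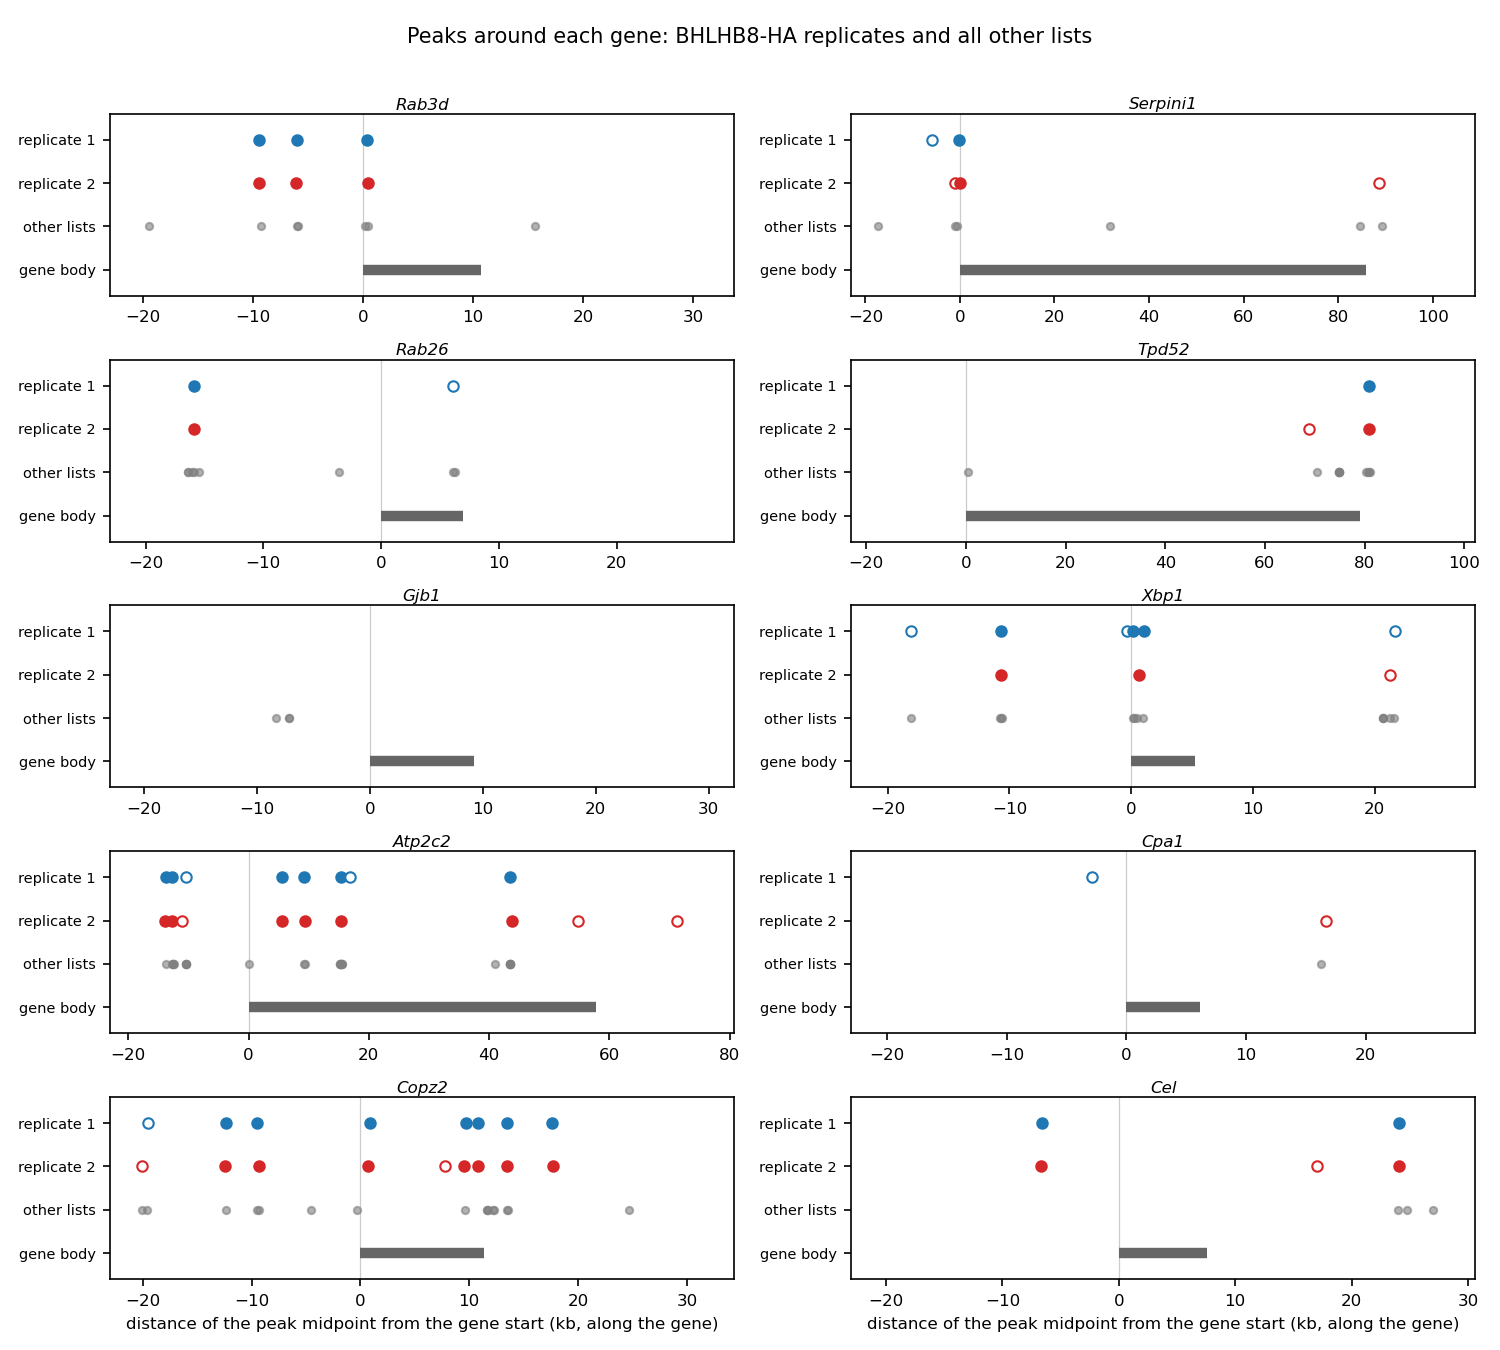
Peak midpoints by distance from the gene start in kb along the gene, for BHLHB8-HA replicate 1 (blue), replicate 2 (red) and all 26 other lists (grey), with the gene body as a bar. Filled blue and red points overlap a peak of the other replicate and open ones do not; all 3 sites of Rab3d are filled and neither site of Cpa1 is.

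Agreement between the replicates was counted as an overlap of at least 1 bp. In the windows, 24 of 33 replicate 1 peaks overlapped a replicate 2 peak (72.7%, exact Clopper-Pearson 95% interval 54.5 to 86.7%). In the other direction it was 23 of 34 (67.6%, interval 49.5 to 82.6%). Over the windows of all protein-coding genes the shares were 56.7% and 41.4%, and over the whole lists 53.3% and 39.2%. The shares at the 10 genes were therefore higher than over all gene windows, by an amount that the interval of replicate 1 covers and that of replicate 2 does not. Intervals here cover counting error over peaks only, and peaks near the same gene are not independent. Where peaks overlapped, their midpoints were a median of 86.8 bp apart, from 7 to 505 bp, and the replicate 2 peak was the wider in 18 of 24 pairs. Medians of width over the pairs were 385 bp in replicate 1 and 551.5 bp in replicate 2. The 1402 bp replicate 2 peak at Xbp1 was counted in the pairs at 0.2 and 1.0 kb, with offsets of 505 and 339.5 bp. It therefore counts more than once in these figures and wherever the 24 sites are used below. At least 1 overlapping pair was present at 8 of the 10 genes, all but Gjb1 and Cpa1, and at 59.1% of all genes. At least 3 overlapped replicate 1 peaks were present at 4 genes (Rab3d, Atp2c2, Copz2 and Xbp1) and at 22.1% of all genes. For the other duplicated constructs with window peaks, 2 of 9 SOX2-HA replicate 1 peaks and 1 of 2 FOXA1-HA replicate 1 peaks were overlapped by their replicate 2. From the shorter replicate 2 lists it was 2 of 3 and 1 of 1, and OCT4-HA had no window peak.

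By position, 17 of the 24 overlapping sites had the start of the secretory-cell gene as their nearest protein-coding start and 7 were nearer to another gene. Within 1 kb of a start of the gene itself there were 5 sites, 1 each at Rab3d, Copz2 and Serpini1 and 2 at Xbp1. A further 3 sites were within 1 kb of a neighbour's start only, those of Ccdc159, Pkd1 and Mrps28. The Serpini1 site lay within 1 kb of a start of its neighbour Pdcd10 as well. Both replicates had a peak within 1 kb of the gene's own start at 4 of 10 genes (Rab3d, Copz2, Serpini1 and Xbp1) and at 29.6% of all genes. Among single peaks in the windows, 36.4% of replicate 1 and 29.4% of replicate 2 were within 1 kb of any start (intervals 20.4 to 54.9% and 15.1 to 47.5%). In the windows of all protein-coding genes, which are likewise built around starts, it was 23.2% and 22.4%, inside those intervals. For the sites by neighbours' starts, position alone cannot assign a peak to 1 gene rather than the other.

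E-boxes were counted in the central 200 bp of each peak, on both strands, since CATATG and CAGCTG read the same on either. At least 1 of them was present in 19 of 33 window peaks of replicate 1 (57.6%, interval 39.2 to 74.5%) and in 17 of 34 of replicate 2 (50%, interval 32.4 to 67.6%). The whole lists had 47.3% and 41.8%, inside those intervals. Stretches of the same length 5 kb downstream that touched no peak had 13.3% and 13.1%, and for the window peaks alone 9 of 31 (29.0%, interval 14.2 to 48.0%) and 6 of 34 (17.6%, interval 6.76 to 34.5%). CAGCTG was the more frequent form, in 14 replicate 1 and 15 replicate 2 peaks, against 5 and 2 for CATATG. In the stretches downstream of the replicate 1 window peaks CAGCTG was present in 22.6% and CATATG in 9.68%, and in those of the whole list in 8.4% and 5.25%. Among replicate 1 window peaks, 17 of the 24 overlapped by replicate 2 held an E-box (70.8%, interval 48.9 to 87.4%) and 2 of the 9 not overlapped did (22.2%). For replicate 2 it was 13 of 23 (56.5%) and 4 of 11 (36.4%). Over the windows of all protein-coding genes the shares were close, at 47.7% and 46.2% for replicate 1 and 41.8% and 40.9% for replicate 2, so the gap describes these few peaks.

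Over the whole stretches shared by the replicates, 18 of 24 sites held CATATG or CAGCTG, 16 the latter and 5 the former. These stretches ran from 152 to 1290 bp, and longer ones match more often by construction. Counts over them, here and below, have no share over all shared stretches beside them and show no enrichment. The 6 without either were at -12.7, 5.6 and 9.2 kb of Atp2c2, 13.5 kb of Copz2, -0.1 kb of Serpini1 and -10.7 kb of Xbp1. CACGTG, the form known for MAX, was in none of the 24 shared stretches, whose lengths differed. In the central 200 bp it was in 3.03% of replicate 1 window peaks, against 3.17% of the whole list and 2.45% of the downstream stretches. For replicate 2 it was in 2.94%, against 3.48% and 2.535%. TGANTCA, the element of AP-1, was in 8 of 24 shared stretches. In the central 200 bp it was in 18.2% of replicate 1 window peaks, against 18.6% of the whole list and 5.65% of the downstream stretches, and in 14.7% of replicate 2 window peaks, against 10.1% of the whole list. Seen from the E-boxes, the 10 windows held 191 copies of CATATG, of which 5 lay in a peak of both replicates (2.62%, interval 0.855 to 6.0%, against 0.546% in the windows of all protein-coding genes and 0.36% in the genome). Of 401 copies of CAGCTG, 19 did (4.74%, interval 2.88 to 7.3%, against 2.65% and 2.06%). The density of peaks was itself higher in the 10 windows than in gene windows in general, its part in these shares was not tested, and copies in 1 peak are not independent. Most copies of either form at these genes had no peak. Of the RefSeq promoters (250 bases before to 50 after a start, GRCm38.p6), 7 of the genes matched, with 10 entries, and only 1 of the 4 entries of Gjb1, with CATATG, and that of Cpa1, with CAGCTG, held either form. Of all 32851 promoters in the table, 19.8% did. The Serpini1 and Xbp1 promoters were overlapped by both BHLHB8-HA lists and that of Rab3d by replicate 2.

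**Figure D3:**
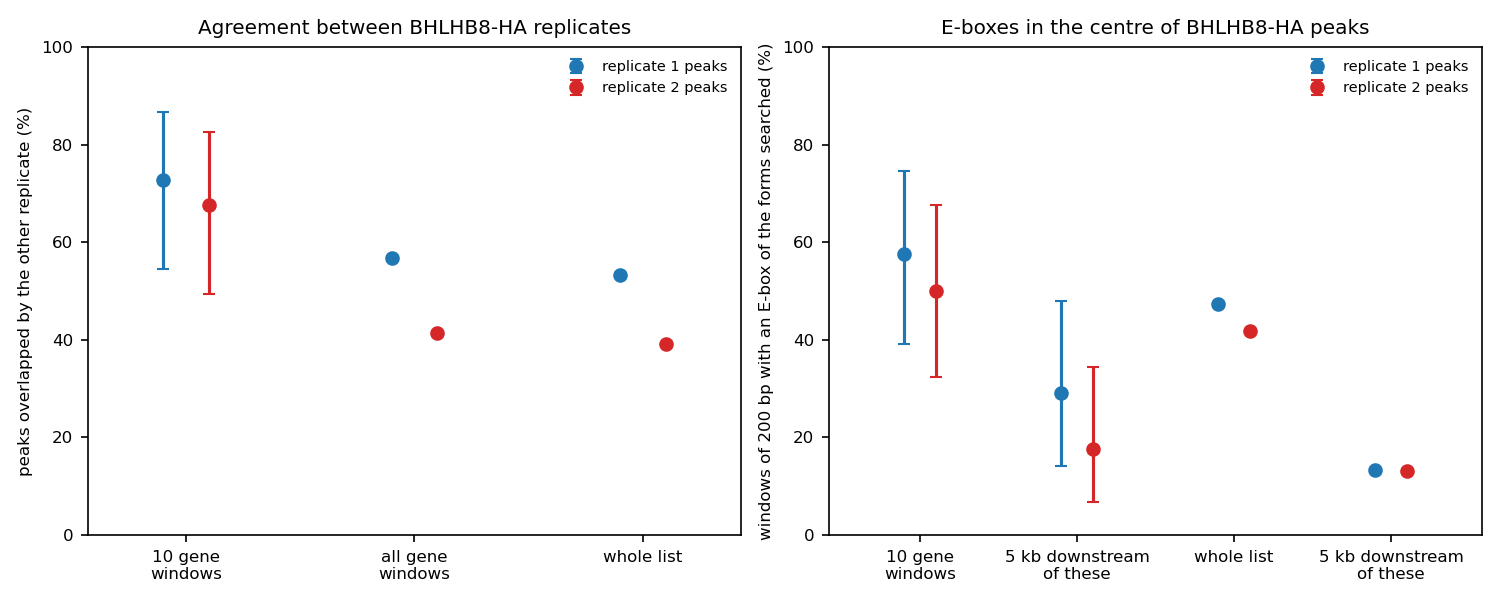
Left, share of BHLHB8-HA peaks overlapped by the other replicate (%), in the 10 gene windows, in windows of all protein-coding genes and in the whole list; right, share of central 200 bp stretches with an E-box of either form (%), in peaks and 5 kb downstream. Points are shares and bars exact 95% intervals (hidden by the points where narrow); replicate 1 runs from 72.7% to 53.3% on the left.

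Set beside the other constructs, the BHLHB8-HA lists supplied 67 of the 163 peaks in the windows (41.1%), where they make up 35.7% of all peaks. The other 26 lists supplied 96. The 35.7% is over whole lists, peaks far from genes included. The share over all gene windows is not given here, so no rise at these genes can be read from it. All 10 genes had a peak of some other construct, as had 85% of all genes, and the median number of constructs at a gene, BHLHB8-HA counted, was 7 here and 5 over all genes. With BHLHB8-HA counted, 6 of 10 genes had peaks of at least 5 constructs, against 53.4%. TEAD1-HA reached 8 of the 10 genes (55.5% of all genes), DLX1-HA 6 (46.5%), DLX6-HA 6 (38.1%) and SOX2-HA replicate 1 also 6 (41.5%). ZFP319-HA reached 5 genes (42.8%), and CDX2-HA (40.7%), DUXBL-HA (44.6%), EBF1-HA (26.5%) and RHOX11-HA (23.7%) reached 4 each. SIX6-HA (17.5%) and SOX2-HA replicate 2 (16%) reached 3 genes each, and FOXA1-HA replicate 1 (17%), SOX15-HA (13.7%) and TOX3-HA (6.33%) reached 2 each. MAX-HA (14.5%), HLF-HA (9.48%) and FOXA1-HA replicate 2 (3.89%) reached 1 gene each. The 9 lists with no peak in any window were also short or thinly spread over all genes: SOX2-YPET OCT4-HA with 5146 peaks (10.4% of all genes), BRACHYURY-HA (2.3%), NANOG-HA (1.12%), FOXA1_RR-HA (0.583%), FOXA1_SW-HA (0.565%), OCT4-HA replicate 1 (0.442%) and replicate 2 (0.219%), PRR3-HA (0.287%) and THAP4-HA (0.269%). TEAD1-HA and BHLHB8-HA were thus the constructs present at most of the 10 genes, and they were also those present at most genes of the genome. The genes where both BHLHB8-HA lists held more peaks than every other list were Rab3d, Atp2c2 and Copz2, 3 of 10, against 28.4% of all genes. The count depended on the window: it was 7, against 41.6% of all genes, with 50 kb flanks, and 5, against 20.2%, within 20 kb of the start only.

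**Figure D4:**
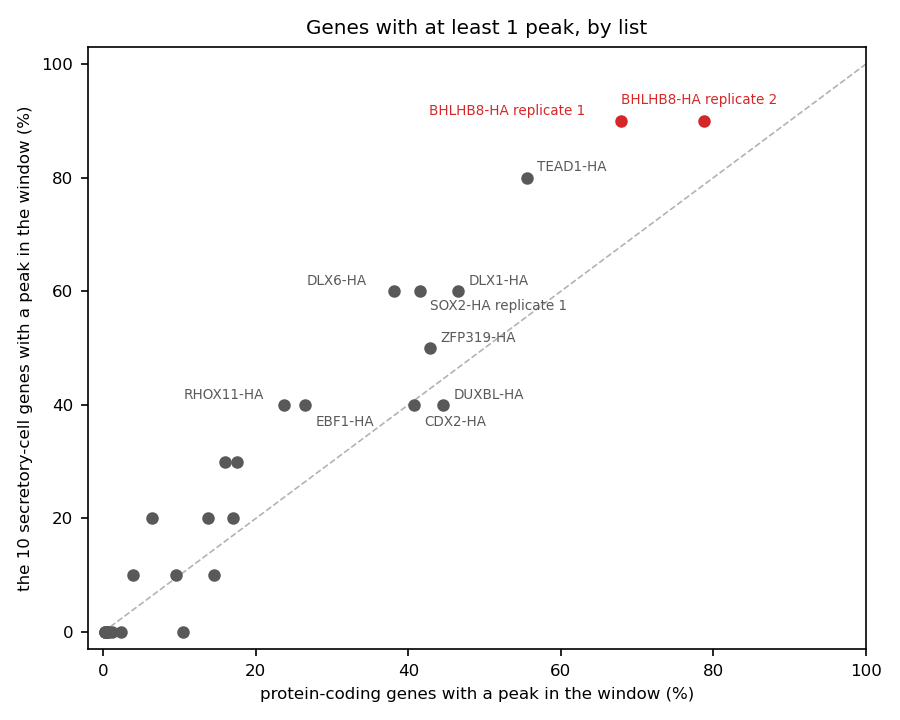
For each of the 28 lists, the share of all protein-coding genes with a peak in the window (horizontal, %) and the share of the 10 secretory-cell genes (vertical, %), with equal shares on the dashed line. BHLHB8-HA (red) lies above the line at 90%, and so do TEAD1-HA at 80% and DLX1-HA, DLX6-HA and SOX2-HA replicate 1 at 60%.

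Per length of DNA, the windows were denser in BHLHB8-HA peaks than the genome by 2.82-fold in replicate 1 and 2.20-fold in replicate 2 (mean 2.51 ± 0.44, SD, n = 2). Summed over the windows of all protein-coding genes, the ratio was 1.64 and 1.65, with DNA and peaks in overlapping windows counted once per gene. Counted once only, these windows covered 52.4% of the genome and held 74.3% of replicate 1 peaks and 74.4% of replicate 2 peaks. In the 10 windows, several other constructs lay within or above the range of the BHLHB8-HA replicates. DLX1-HA stood at 2.79, TEAD1-HA at 2.68 and DLX6-HA at 2.29, while EBF1-HA stood at 4.18 with 8 peaks and RHOX11-HA at 4.38 with 5. DUXBL-HA was sparser than the genome, at 0.659. The density of BHLHB8-HA at these genes was thus within the range of the other constructs, and with 1 list for most of them no difference was tested.

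Of the 24 sites shared by the BHLHB8-HA replicates, 18 also carried a peak of another construct and 6 did not. Over the windows of all protein-coding genes, 66.8% of overlapped replicate 1 peaks and 68.2% of overlapped replicate 2 peaks carried one, against 75% and 73.9% in the 10 windows. DLX1-HA was there at 11, DLX6-HA at 6, TEAD1-HA at 5, and EBF1-HA, SOX2-HA and ZFP319-HA at 4 each. Shares of single constructs over all shared sites are not given here, so these counts have nothing to be set against. The 6 sites without another construct were at 5.6 kb of Atp2c2, 0.9, 10.8 and 17.6 kb of Copz2, -0.1 kb of Serpini1 and -6.7 kb of Cel. Seen from the other lists, 62 of their 96 window peaks overlapped a BHLHB8-HA peak (64.6%, interval 54.2 to 74.1%), and 47.3% of all their peaks did so genome-wide. When overlapping peaks of all lists were merged, the windows held 67 sites, 43 with BHLHB8-HA, of which 18 had it alone, and 24 without it. BHLHB8-HA was thus at 64.2% of the sites, against 49.1% of 168506 merged sites in the genome. The 47.3% and 49.1% include peaks and sites far from genes. Shares over all gene windows are not given for them, so neither difference can be called particular to these genes.

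BHLHB8-HA peaks were also counted at lists of other genes of the secretory apparatus. Of 20 genes for folding in the endoplasmic reticulum and the unfolded protein response, all 20 had a peak in both replicates and 17 had an overlapping pair (85%, against 59.1% of all genes), led by Sec24d, a COPII coat gene, with 6 overlapped replicate 1 peaks, and Ern1, which encodes the sensor IRE1 that splices Xbp1, with 4. In this list 15 genes had a peak of both replicates within 1 kb of a start (75%, against 29.6%). Of 22 granule traffic genes, 17 had an overlapping pair (77.3%), led by Rab37 and the granule motor Myo5c with 6 each, but their windows were long, with a median of 84.86 kb against 57.42 kb for all genes. Of 20 genes for acinar digestive enzymes and granule cargo, 6 had an overlapping pair (30%) and 0 had a promoter peak in both replicates. The elastase gene Cela1 had most, with 3 overlapped peaks. Of 9 acinar transcription factor genes, 4 had an overlapping pair (44.4%), with Rbpjl, Tcf3 and Tcf12 at 4 overlapped peaks each. Of 14 paralogues of the 10 genes, 9 had one (64.3%), led by Rab37 with 6 and by Copz1 and Tpd52l2 with 4 each. Window lengths differed between these groups, and no group was tested. The lists were chosen with earlier results of these data known. Shares of other constructs at them are not given here, so the shares cannot be called particular to BHLHB8-HA.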

How the data were processed

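Anti-HA ChIP-seq libraries from NIH-3T3 lines were aligned by the authors to mm10 with STAR 2.5.3a, keeping unique alignments, and duplicates were removed with Picard. The authors called peaks per sample with MACS2 2.1.1.20160309 in paired-end mode and discarded those overlapping peaks of the input or the ENCODE blacklist. Deposited values are positions of peaks as intervals, with no score or count, so weak and strong peaks weigh alike and list length depends on depth. One input sample had no list and was not used here. Positions are 1-based.

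Peaks were counted in windows of the gene body plus 20 kb (GENCODE vM21) with Python 3.11.15 and NumPy 2.4.6. Exact intervals came from SciPy 1.17.1. Counting was tested on simulated lists. All 10 genes were named, other genes by most peaks of replicate 1 overlapped by replicate 2 (at most 3 per list, fewer at ties; 1 such gene is not reported here), and 3 genes by likeness over the 28 lists. The genes and lists were chosen with earlier results of these data known. No test was made. Counts in the main windows stand beside all protein-coding genes. Alternatives changed the window, peak width, overlap, E-box form, widely shared sites and replicates.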

Additional observations from a re-analysis of the deposited data

How the results depend on the processing

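Of 35 alternative values for 5 results, 28 were counted as near the value reported, within wide limits. Values counted as near included replicate agreement of 54.5% and 84.6% against 72.7%, and 2 genes above all others against 3. Genes with a peak in both replicates numbered 5 instead of 9 when the gene body alone was used. The share of all genes for that window is not given here, so the count has nothing to be set against. Genes where both BHLHB8-HA lists exceeded every other list numbered 7 with 50 kb flanks and 5 with 20 kb around the start only, instead of 3, and the density ratio rose to 3.54 around the start only. The mean share of window peaks with an E-box over both lists, 53.8%, was 70.1% over whole peaks, 77.7% for any CANNTG and 35.8% in the central 100 bp; longer stretches and looser forms match more often by construction, and the cause of the others was not tested. With 1 replicate left out, genes with a peak remained 9 in number and genes above all others were 4. For the latter count, too, no share of all genes is given here. The ratio with 1 replicate left out was 2.20 to 2.82 and the E-box share 50 to 57.6%. Counting only reciprocal overlaps of 50% gave 54.5% agreement instead of 72.7%. No paired analysis was possible because no result came from a test. Without read counts, peaks missed for lack of depth cannot be told from unbound sites.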

Other observations

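The protein-coding genes whose peak counts over the 28 lists ran most like the summed counts of the 10 windows, outside the lists and windows used, were Agap1 (Pearson r = 0.980), Macrod1 (r = 0.979) and Rap1gap2 (r = 0.978). They held 30 and 34, 17 and 16, and 15 and 19 BHLHB8-HA peaks in replicates 1 and 2. The points share the length of the lists: the summed counts of the 10 windows correlated with list length at r = 0.943, and the median r over eligible genes was 0.766.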
